A study of Mus musculus with 4 samples.

Results

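The genes described here are 8 enzymes of cholesterol synthesis, Hmgcs1, Idi1, Fdps, Fdft1, Sqle, Lss, Cyp51 and Dhcr7, among 19087 genes measured in the mouse globus pallidus. They were chosen by name, as genes whose transcription follows the sterol supply and whose product is also a building block of myelin. The rule uses no measured value, but it was set with earlier results of these data known. A gene was taken from the array spots whose platform annotation gives that single symbol, and the spots of a gene were averaged. The 8 genes have 17 spots of 33653 with 1 symbol. Although cholesterol uptake belongs to the same sterol-controlled programme, no uptake receptor is among the 8, so they are called cholesterol synthesis genes below.

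The study compared male C57BL6 mice that received cocaine at 15 mg/kg on days 2, 3 and 4 of a conditioned place preference protocol, and that scored low in it, with male C57BL6 mice that received saline on the same days. Conditioned place preference measures how long an animal stays where it met the drug. All cocaine mice had a low score, so an effect of the drug cannot be told apart from that of a low score, and an age was not given in the sources used here. RNA of a cocaine mouse and of a saline mouse shared each of 4 Agilent whole-genome arrays of 60-mer probes, and each channel carries its own animal code in the labels, so an array was taken as 1 biological replicate. Arrays 1 and 3 held the cocaine RNA in the Cy5 channel, and on arrays 2 and 4 the dyes were exchanged.

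Every value is a log2 ratio between the 2 channels of an array, read as cocaine over saline. The direction is only likely. Arrays of opposite dye orientation correlated at -0.83 to -0.96 over 45018 spots and arrays of the same orientation at 0.87 and 0.90, so the columns had probably been turned to read the same way, and the design text names cocaine first. If the ratio is saline over cocaine, every sign below reverses. Over all 19087 genes the median log2 ratio was -0.003, and the median standard error (SE) was 0.057. A ratio gives no level, so the labelled tissue could not be checked against marker levels. As a stand-in, a spot was called above background where its dye bias, averaged over both orientations, exceeded 0.115 on the log2 scale. By it all 10 pallidal neuron markers examined had a spot above background, against 13864 of all 19087 genes. So did all 16 myelin, 11 astrocyte and 6 striatal markers measured, and 4 of 6 cortical and thalamic ones, so this does not single out the pallidum. All 17 spots of the 8 genes were above background, against 62.8% of all spots. In bulk tissue, fewer cells of a type and less RNA per cell cannot be told apart.

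Cholesterol is made from acetyl-CoA through mevalonate, the isoprenoid farnesyl pyrophosphate, squalene and lanosterol. When sterols run low in the endoplasmic reticulum, the escort protein Scap carries the transcription factor SREBP to the Golgi, where it is cut free to switch on most enzymes of the route, and Insig proteins hold it back when sterols are plentiful. Lipoprotein cholesterol does not cross the blood-brain barrier, so brain cells depend on their own synthesis. Oligodendrocytes use much of it for myelin, and astrocytes pass cholesterol to neurons on apolipoprotein E.

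The promoters show what these genes share on the DNA side. The bases before the start given in the RefSeq promoter table (build GRCm38.p6) were searched over 150 positions and are shown for the 5 genes found there, because the genes were grouped as sterol-regulated, and SREBP works on such promoters together with NF-Y and Sp1. Capitals mark the core of the sterol regulatory element (CACNCCAC) and the NF-Y box (CCAAT), on either strand, so that an NF-Y box on the other strand reads ATTGG.
Hmgcs1: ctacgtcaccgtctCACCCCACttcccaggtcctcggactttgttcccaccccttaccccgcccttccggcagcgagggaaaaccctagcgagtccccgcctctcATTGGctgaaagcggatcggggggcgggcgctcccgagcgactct
Idi1: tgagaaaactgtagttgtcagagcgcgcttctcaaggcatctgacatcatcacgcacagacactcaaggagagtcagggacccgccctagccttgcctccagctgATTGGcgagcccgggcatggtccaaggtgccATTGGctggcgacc
Lss: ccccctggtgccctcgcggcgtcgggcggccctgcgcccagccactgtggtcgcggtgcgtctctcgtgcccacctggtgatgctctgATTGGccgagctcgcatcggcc
Cyp51: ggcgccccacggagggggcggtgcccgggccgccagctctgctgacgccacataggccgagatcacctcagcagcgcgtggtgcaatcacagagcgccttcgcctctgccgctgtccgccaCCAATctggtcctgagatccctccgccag
Dhcr7: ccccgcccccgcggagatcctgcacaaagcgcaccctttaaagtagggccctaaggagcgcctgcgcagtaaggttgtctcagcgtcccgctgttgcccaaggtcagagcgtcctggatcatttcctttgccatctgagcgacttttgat
The stretches lie at chr13:119690201-119690350 (plus strand), chr13:8885456-8885605 (plus strand), chr10:76531455-76531564 (plus strand), chr5:4104698-4104847 (minus strand) and chr7:143823017-143823166 (plus strand). For Lss the last 40 bases of the stretch lie inside the annotated gene and are not printed, which leaves 110. Dhcr7 has 3 entries, and the one at the outermost annotated start was taken. Fdft1, Fdps and Sqle have no entry.

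The NF-Y box was found in 4 of the 5 stretches, all but that of Dhcr7, against 24.5% of the same stretch before 32851 annotated starts. In Hmgcs1 it lay 45 to 41 bases before the start, and Idi1 had a box at the same distance and another at 14 to 10 bases. In Lss it lay 62 to 58 and in Cyp51 29 to 25 bases before the start. The sterol element core was found only in Hmgcs1, 136 to 129 bases before the start, against 3.37% of all stretches. Only the form CACNCCAC was searched, so a stretch without capitals for it may still hold another form of the element. The GC box that Sp1 binds (GGGCGG, either strand, not in capitals, no overlap with the others here) was found in all 5, against 28.6%. These are matches of letters in a window, not sites shown to be bound.

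None of the 8 genes passed the test of cocaine against saline mice across all genes. With limma and Benjamini-Hochberg adjustment, 0 of 8 passed an adjusted p under 0.05, each having an adjusted p of 0.999, and 0% of all 19087 genes passed. At an unadjusted p under 0.05 there were also 0 of the 8, against 1.52% of all genes. The mean log2 ratios ran from -0.09 to 0.11, with 5 of 8 above 0, against 48% of all genes. Their median was 0.017. The 95% intervals of limma's moderated test all lay within 0.84-fold and 1.18-fold. For these averages over the spots of a gene, differences beyond that range fell outside them on the scale of these ratios. They do not bound single spots, whose means ran from 0.875-fold (Fdps, log2 SE 0.11) to 1.16-fold (Lss, log2 SE 0.05). The deposited ratios show no background subtraction, which understates the fold of dim transcripts.

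**Figure D1:**
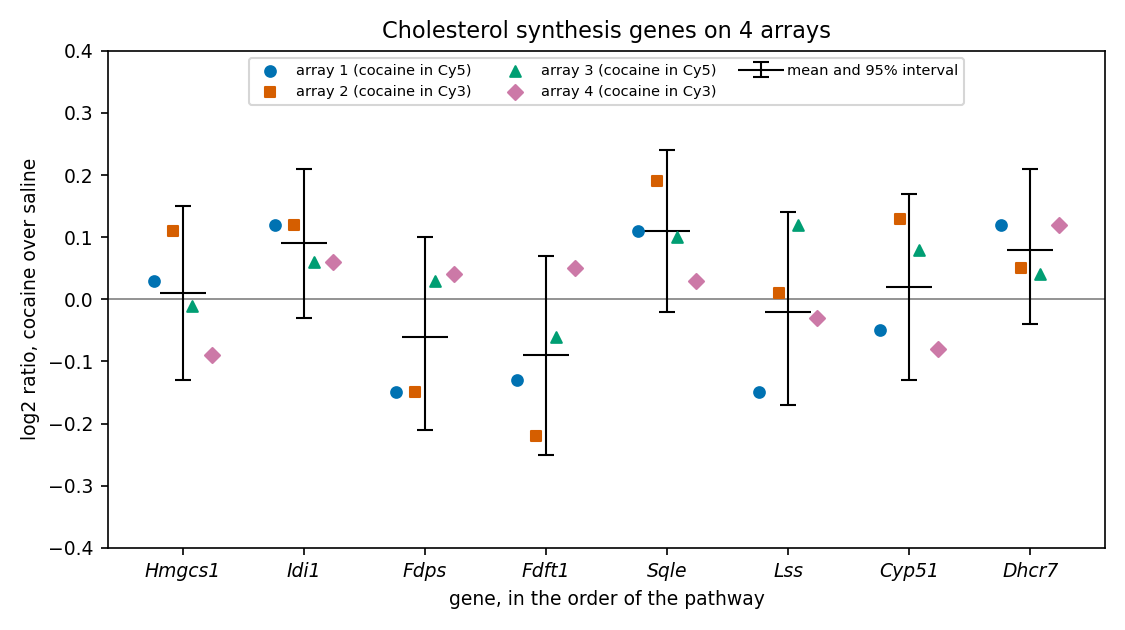
Log2 ratio of cocaine over saline (vertical axis) for the 8 cholesterol synthesis genes (horizontal axis, in pathway order) on each of 4 arrays. Bars give the mean and its 95% interval from limma, and every interval includes 0.

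The early enzymes make the isoprenoid units. Hmgcs1, the cytosolic HMG-CoA synthase that starts the mevalonate route, had log2 ratios of 0.03, 0.11, -0.01 and -0.09 on arrays 1 to 4. These lie on both sides of 0, and the mean was 0.01 (SE 0.06, n = 4 arrays), which is 1.01-fold. Idi1, the isomerase that turns isopentenyl pyrophosphate into its reactive isomer, stood at 0.12, 0.12, 0.06 and 0.06. It was above 0 on 4 of 4 arrays, with a mean of 0.09 (SE 0.05), 1.06-fold, and 93.8% of all genes had a lower mean. Its SD over arrays after normalization, 0.04, was the smallest of the 8. Fdps, the synthase of farnesyl pyrophosphate, stood at -0.15, -0.15, 0.03 and 0.04. The arrays thus divided into those below and those above 0, around a mean of -0.06 (SE 0.06). Both of arrays 1 and 2 lay below both of arrays 3 and 4 in 2 of the 8 genes and in 30.8% of all genes.

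The next enzymes commit the route to sterols. Fdft1, squalene synthase, had log2 ratios of -0.13, -0.22, -0.06 and 0.05 on arrays 1 to 4. It had the lowest mean of the 8 at -0.09 (SE 0.06, n = 4 arrays), 0.938-fold, with array 4 on the other side of 0. Sqle, the squalene epoxidase that acts on its product, stood at 0.11, 0.19, 0.10 and 0.03. It was above 0 on 4 of 4 arrays and had the highest mean, 0.11 (SE 0.05), 1.08-fold, and 96% of all genes had a lower mean. These successive enzymes therefore lay at opposite ends of the 8, though each interval included 0 and their difference was not tested. Lss, which closes the ring to lanosterol, stood at -0.15, 0.01, 0.12 and -0.03. Its mean was -0.02 (SE 0.06), with arrays on both sides of 0.

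The last enzymes turn lanosterol into cholesterol. Cyp51, the lanosterol demethylase, had log2 ratios of -0.05, 0.13, 0.08 and -0.08 on arrays 1 to 4. The mean was 0.02 (SE 0.06, n = 4 arrays), with 2 arrays on each side of 0. Dhcr7, the reductase of the final step, stood at 0.12, 0.05, 0.04 and 0.12. It was above 0 on 4 of 4 arrays, with a mean of 0.08 (SE 0.05), 1.06-fold. Sqle, Idi1 and Dhcr7 were the 3 genes of the 8 with the same sign on all arrays, each above 0, against 8% of all genes above 0 on 4 of 4 arrays. The normalization ties the 4 values of a gene together, so they are not 4 independent signs.

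**Figure D2:**
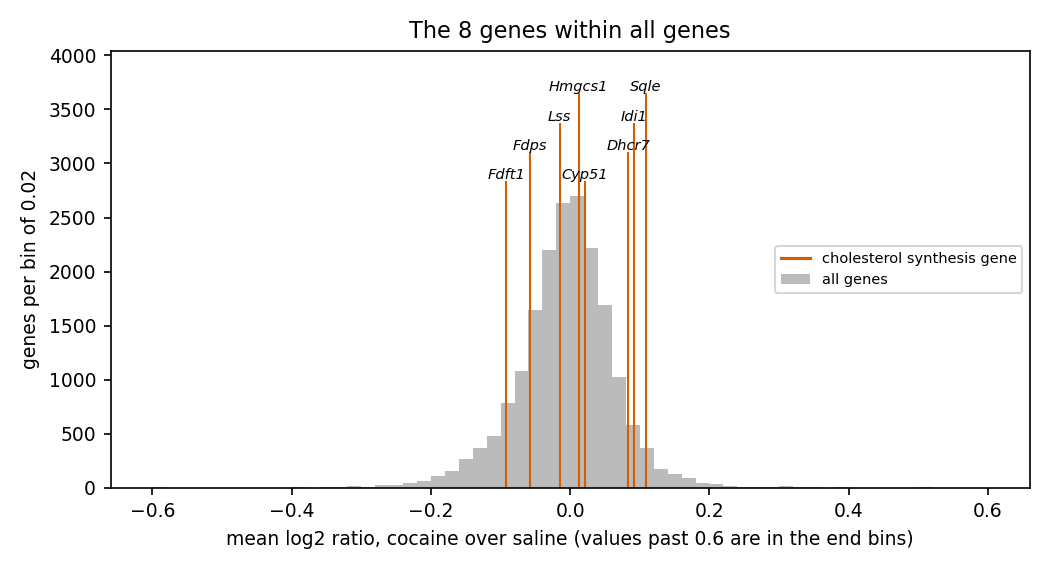
Number of genes (vertical axis) by mean log2 ratio of cocaine over saline (horizontal axis, bins of 0.02) for all 19087 genes in grey, with the 8 cholesterol synthesis genes as orange lines. The 8 lie between -0.09 and 0.11, within the bulk of all genes.

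By array, the median of the 8 genes was -0.01, 0.08, 0.05 and 0.03 on arrays 1 to 4, with 4, 6, 6 and 5 of 8 genes above 0. The SD among the 8 genes was 0.12, 0.14, 0.06 and 0.07 on arrays 1 to 4. Among all genes it was larger on each array, at 0.152, 0.162, 0.102 and 0.127. The sets are unlike, since all 8 have a spot above background, against 13864 of all 19087 genes. Besides, 7 of the 8 are averages of 2 or 3 spots. Over arrays the SD of a gene ran from 0.035 to 0.113 with a median of 0.091, beside 0.089 for all genes. The gene nearest to the mean profile of the 8 was Cyp51, with a root mean square difference of 0.072 over 4 arrays, which put it at rank 5650 among all genes. The 5 nearest genes outside the 8 with a spot above background were Chst11, Wdr11, Robo1, Adcy4 and H3c14, at 0.0035 to 0.0076. That profile lay within 0.05 of 0 on each array, and their likeness is a description over 4 arrays.

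Spots of the same gene lay apart in several of the 8. Lss had spots at 0.22 (SE 0.05), -0.10 (SE 0.07) and -0.16 (SE 0.10) when each spot was tested singly. The first, spot 36377, stood at 0.23, 0.25, 0.19 and 0.19 on arrays 1 to 4, and the platform annotation ties it to a cDNA record in place of the RefSeq mRNA given for the other 2. The spread of 0.38 between its spots exceeded that of 99.1% of the 999 genes with 3 spots above background. Cyp51 had spots at 0.16 (SE 0.06), 0.00 (SE 0.06) and -0.10 (SE 0.08), all tied to the same RefSeq mRNA, a spread of 0.26 that exceeded 94.8% of those genes. Averages of these genes near 0 therefore come from spots on both sides of it.

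Among the genes with 2 spots, Fdps had -0.19 (SE 0.11) and 0.08 (SE 0.05). Its spot 10986 carried the division between arrays, with -0.41 and -0.40 on arrays 1 and 2 and 0.02 on both arrays 3 and 4, while spot 124 stood between 0.04 and 0.11 and is tied to a cDNA record. Hmgcs1 had 0.11 (SE 0.06) and -0.09 (SE 0.07). These spreads of 0.27 and 0.20 exceeded those of 98.7% and 95.4% of 3132 genes with 2 spots above background, whose median spread was 0.06. Fdft1 had -0.16 (SE 0.12) and -0.02 (SE 0.10), and the first ran from -0.49 on array 1 to 0.16 on array 3. Idi1 had 0.14 (SE 0.06) and 0.04 (SE 0.05), and Dhcr7 had 0.12 (SE 0.08) and 0.04 (SE 0.06), so both genes had their spots on the same side. Sqle has 1 spot.

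Spots of opposite sign were found in 4 of these 7 genes, Hmgcs1, Fdps, Lss and Cyp51, against 45.2% of 4131 genes with 2 or 3 spots above background. The difference between spots was itself tested with limma over all 6129 pairs of spots of such genes, a test chosen after the spot values were seen. Of the 11 pairs in the cholesterol synthesis genes 0 passed an adjusted p under 0.05 (adjusted p 0.997 for each), as did 0% of all pairs, and 4 had an unadjusted p under 0.05, against 0.979% of all pairs. The 4 were spot 36377 of Lss against each other spot of that gene, at 0.31 (SE 0.09) and 0.38 (SE 0.12), a pair of Cyp51 at -0.26 (SE 0.10) and the pair of Hmgcs1 at 0.20 (SE 0.08). Each kept its sign on 4 of 4 arrays, which 6 of the 11 pairs did in all. The 4 were picked by p from these same array values, so this adds no support. The share over all pairs was not counted. In Lss both differences come from the same spot. Tested singly, 2 spots had an unadjusted p under 0.05, spot 36377 of Lss and spot 5753 of Cyp51, both higher, against 1% of all spots with 1 symbol, and 0 of the 17 passed an adjusted p under 0.05, as did 0% of all spots. The spot with the larger averaged dye bias had the higher ratio in 5 of 7 genes, against 56.5% of such genes. The part of brightness, of the transcript end probed and of cross-hybridization in these differences was not tested.

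**Figure D3:**
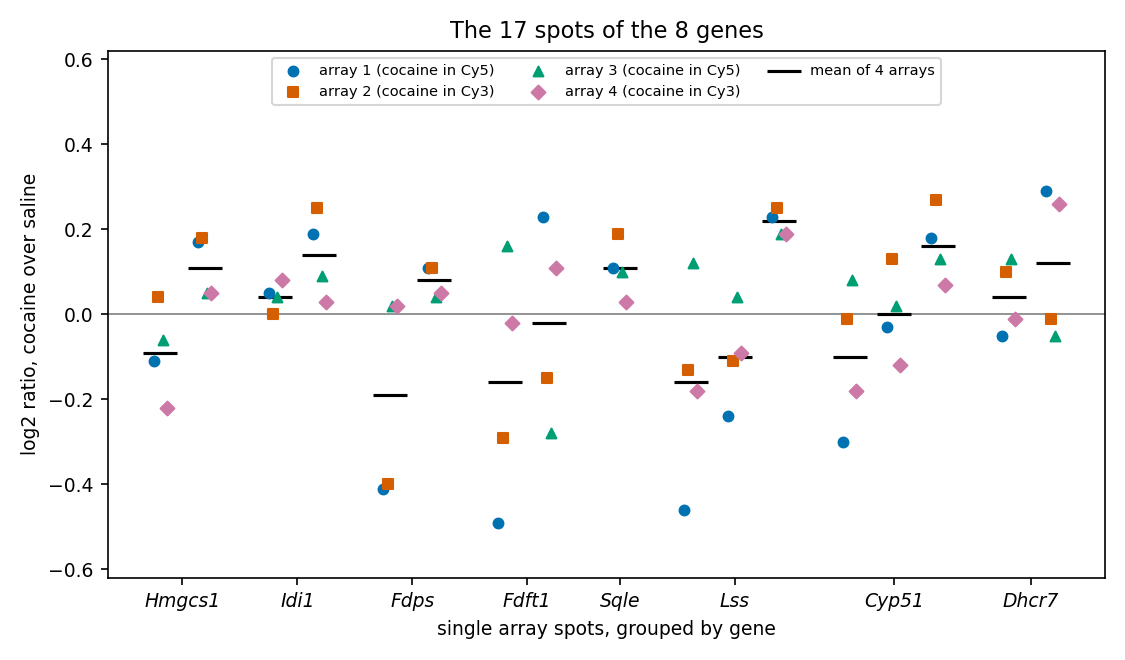
Log2 ratio of cocaine over saline (vertical axis) for each of the 17 spots of the 8 genes (horizontal axis) on 4 arrays, with the mean of the 4 arrays as a black line. Spots of Hmgcs1, Fdps, Lss and Cyp51 have means on both sides of 0.

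The other enzymes of the route were measured for 11 of 14 genes listed. The other 3 were not analysed here. Of the 11, 7 had a mean above 0 and 4 below, against 48% of all genes above 0. Their median log2 ratio was 0.02, and 0 passed an adjusted p under 0.05. Tm7sf2, a sterol reductase after lanosterol, stood at 0.37, 0.19, 0.05 and 0.23 on arrays 1 to 4. It was above 0 on 4 of 4 arrays, with a mean of 0.21 (SE 0.07, n = 4 arrays), 1.16-fold, and was the 1 gene of the 11 with an unadjusted p under 0.05, against 1.52% of all genes. It has 1 spot, and ranged from 0.132 to 0.254 in fits that left out 1 array, with the normalization repeated on the remaining arrays. Msmo1, the methyl sterol oxidase that follows Cyp51, stood at 0.15, 0.30, 0.09 and -0.05, with a mean of 0.12 (SE 0.07). The means of the list ran from -0.14 to 0.21.

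Of 7 genes of SREBP control 3 were above 0 and 4 below, with a median of -0.003, and 0 passed. Srebf2, the SREBP gene that mainly drives cholesterol synthesis, had a log2 ratio of 0.00 (SE 0.05), and its sign turned under 5 other settings of the normalization and spots. Insig1, itself a target of SREBP that holds Scap back, stood at -0.02, -0.01, 0.00 and 0.02, with a mean of 0.00 (SE 0.05). Srebf1, which mainly drives fatty acid synthesis, stood at -0.11, -0.25, -0.12 and 0.01, with a mean of -0.12 (SE 0.06), and Scap had -0.07 (SE 0.06). Of 10 genes of fatty acid synthesis, 1 had a mean above 0 and 9 below, with a median of -0.04, and 0 passed. Of all genes 48% had a mean above 0. None of the 10 had an unadjusted p under 0.05 with limma, and a shift of the list was not tested. Fads1, a fatty acid desaturase, had -0.18 (SE 0.12), with -0.54 on array 1 and 0.17 on array 3. Acly, which makes cytosolic acetyl-CoA, had -0.09 (SE 0.06), and -0.171 with spots above background alone.

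Uptake and intracellular transport were measured for 10 of 13 genes listed. Of the 10, 6 had a mean above 0 and 4 below, with a median of 0.02, and 0 passed. Mylip, a ubiquitin ligase that degrades lipoprotein receptors, had a log2 ratio of 0.07 (SE 0.05) with 0.06 to 0.07 on the 4 arrays. Npc1, which moves cholesterol out of lysosomes, had -0.08 (SE 0.05) and was below 0 on 4 of 4 arrays. Only 1 of its 2 spots was above background, and with such spots alone its log2 ratio was -0.178, with an unadjusted p of 0.045 from limma. Efflux and turnover were measured for 8 of 10 genes, with 3 above 0 and 5 below, a median of -0.09, and 0 passed. For both lists the share above 0 stands beside 48% of all genes. Apoe, the brain's main cholesterol carrier, stood at -0.41, -0.50, -0.02 and -0.04, with a mean of -0.24 (SE 0.10). That mean was -0.042 without array 2 and -0.429 without array 3, with the normalization repeated each time. Cyp27a1, a sterol hydroxylase, stood at -0.39, -0.27, 0.00 and -0.12, with a mean of -0.20 (SE 0.08). Abca1, a cholesterol exporter, had 0.04 (SE 0.06), and Cyp46a1, the neuronal enzyme that makes cholesterol fit to leave the brain, had -0.06 (SE 0.09).

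**Figure D4:**
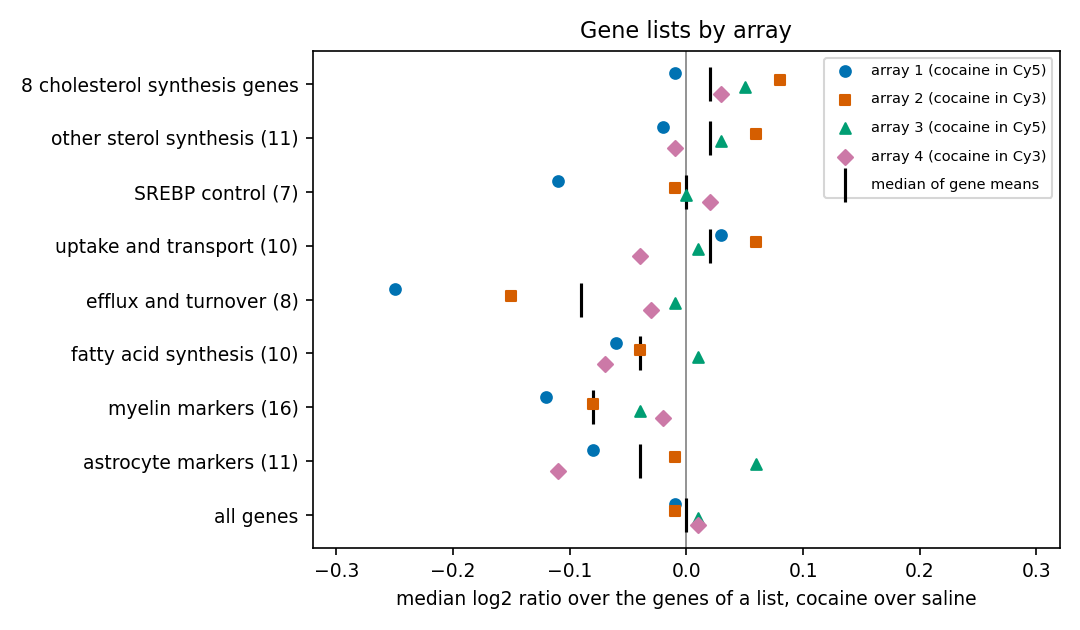
Median log2 ratio of cocaine over saline (horizontal axis) for each gene list (rows, number of measured genes in brackets) on 4 arrays, with the median of the gene means as a black line. The 8 cholesterol synthesis genes have medians from -0.01 to 0.08, and the myelin markers from -0.12 to -0.02.

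Myelin holds much of the cholesterol made in the brain. Of 16 measured markers of myelin and oligodendrocytes 2 had a mean above 0 and 14 below, with a median of -0.08. Of the 8 cholesterol synthesis genes 5 were above 0, with a median of 0.02 that turned to -0.020 without array 2. The share above 0 was 48% over all genes. By array the marker median was -0.12, -0.08, -0.04 and -0.02, below that of the 8 genes on each of the 4. Mbp, myelin basic protein, had a log2 ratio of -0.13 (SE 0.06). With the normalization repeated, it was -0.020 without array 2, -0.031 without array 4 and -0.278 without array 3. The part of the repeated normalization in these shifts was not tested. Mal, a myelin proteolipid, had -0.11 (SE 0.05) with 4 of 4 arrays below 0. None of the 16 passed (limma adjusted p, with 0 at an unadjusted p under 0.05), and the difference between the lists was not tested. Astrocytes are the other main source of cholesterol. Of 11 astrocyte markers 4 had a mean above 0 and 7 below, with a median of -0.04 and with Sox9 at 0.15 (SE 0.06). The part of cell composition in the values of the 8 genes was not tested.

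The values of single genes depended on which arrays were used. Each fit that left out 1 array also repeated the dye bias average and the normalization, so its shifts hold both changes. Sqle, Idi1 and Dhcr7 stayed above 0 and Fdps and Fdft1 below 0 in each of the 4 fits that left out 1 array, while the signs of Hmgcs1, Lss and Cyp51 turned in at least 1 of them. Sqle ranged from 0.081 to 0.157 and Fdft1 from -0.166 to -0.034, the high end of Sqle and the low end of Fdft1 being those without array 4. The median of the 8 was 0.048, -0.020, 0.005 and 0.066 without arrays 1 to 4, and 3 of 8 genes were above 0 without array 2. No gene of the 8 passed in any of these fits, and the smallest adjusted p was 0.55, for Fdft1 without array 4.

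**Figure D5:**
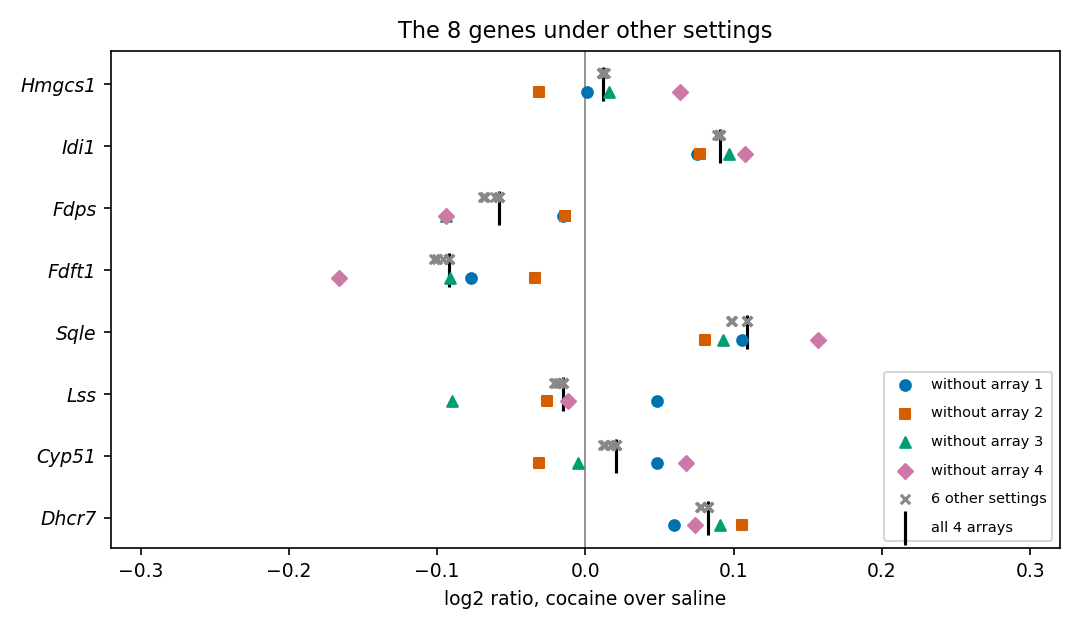
Log2 ratio of cocaine over saline (horizontal axis) of the 8 genes (rows) with all 4 arrays (black line), without each array in turn (coloured points) and under 6 other settings (grey crosses). The points without array 4 reach 0.157 for Sqle and -0.166 for Fdft1.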

How the data were processed

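The table deposited by the authors gives the log2 ratios of 45220 spots on each array. Agilent Feature Extraction is named in the submitters' processing notes, without a version, and 75 ng of total RNA were labelled, per the labels' protocols. Of the nonzero values of array 3, 98.9% came out as whole-number ratios when read as log2 (tolerance 2e-13), against 1.4% when read as log10. Array medians of the deposited log2 ratios were 0.33, -0.25, 0.49 and -0.56, so neither normalization nor centring by the authors was visible. The log scale of arrays 1, 2 and 4 was taken to be the same.

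Spots at 0 on all arrays (202) were left out. Loess normalization (span 0.3) was applied per array, with the mean dye bias of the 2 orientations as predictor, since a treatment effect is not part of it. Of the probes 33653 had 1 symbol, 56 several and 11511 none, and 33517 matched RefSeq genes of GRCm38.p6 by Entrez identifier. Averaging spots of a gene gave 30452 features. The test was that of limma 3.58.1 (lmFit and eBayes, R 4.3.3), with terms for treatment and dye, 5.21 total degrees of freedom and Benjamini-Hochberg adjustment over all features. The background limit is the most frequent dye bias plus 3 SDs of the values under it. The number of arrays limits the precision.

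The 8 genes and all lists were chosen with earlier results of these data known. Named besides the 8 are 11 genes fixed by name where measured, the 2 genes of smallest p per pathway list, 1 per marker list, and the 5 nearest profiles. Of these, Tm7sf2, Srebf1, Scap, Abca1, Cyp27a1, Cyp46a1, Fads1, Npas1, Rgs9, Nrgn, Tmem119, Cldn5, Adcy4 and H3c14 have 1 spot each. Alternatives were median centring, no normalization, span 0.6, no dye term, spots above background, single spots, a variance trend and each array left out. With an array left out, the dye bias average and the loess were computed anew from the remaining arrays.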

Additional observations from a re-analysis of the deposited data

Results flagged for a closer look

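The 4 array values of each named gene and the 4 array medians of each gene list, 48 groups in all, were examined for 1 array far from the other 3. In 0 of the 48 groups did an array stand apart. The normalization pulls the 2 dye orientations of a gene to nearly the same mean, which ties the 4 values together and largely fixes this count beforehand, so it says nothing about how stable the values are.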

How the results depend on the processing

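No gene of the 8 passed under any of 11 alternatives each, of which 83 of 88 kept the direction. Some of these could not have turned it. Dropping the dye term with balanced dyes, or adding a variance trend, leaves the log2 ratio of any gene as it was. All 17 spots of the 8 are above background, so that filter left their log2 ratios as they were too. The alternatives that turned the sign were Lss at 0.216 for its spot of smallest p, and fits that left out 1 array. Those fits ranged from -0.031 to 0.064 for Hmgcs1, -0.090 to 0.048 for Lss, -0.031 to 0.068 for Cyp51, -0.020 to 0.066 for the median of the 8, and 3 to 6 for the number above 0. Of 297 alternatives over 27 other named genes 14 turned the sign. Srebf2 stood at -0.004 with arrays centred on their median, -0.003 with no normalization, 0.000 with a span of 0.6, -0.012 with spots above background and -0.085 for its spot of smallest p, and Robo1 stood at 0.000 with spots above background. Without single arrays Srebf2 ranged from -0.029 to 0.038, Robo1 from -0.003 to 0.030, Abca1 from -0.003 to 0.113, Cyp46a1 from -0.185 to 0.044, Scap from -0.148 to 0.007, Insig1 from -0.020 to 0.002 and H3c14 from -0.024 to 0.050. The cause was not tested.

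The number of features past the threshold was 0 with limma (529 at an unadjusted p under 0.05), and became 18 with arrays centred on their median, with 0 of the 8 genes among them. Without array 4, 2 of the 8 had an unadjusted p under 0.05, against 8.76% of all features, and with no dye term 3 had, against 6.24%. The normalization had already pulled the 2 dye orientations together, so p-values without the dye term are too small. The median SE over genes was 0.042 without it and 0.057 with it. Leaving out 1 array moved the log2 ratio by over 1.5 times, or turned it, in 5 of the 8 genes and in 23 of the 27 other named genes. Dim spots are limited by the missing background subtraction, and no intensities were used. Each value is the ratio of the cocaine and the saline animal that shared an array, so the test already used that pairing. No further pairing between arrays was made, because replicate numbers come from no label.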

Other observations

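Markers of other cells that the dissected tissue could hold are given for comparison with the cholesterol synthesis genes. The counts above 0 stand beside 48% of all genes with a mean above 0. None of these markers passed an adjusted p under 0.05 with limma, and Nrgn was the 1 of these 33 markers with an unadjusted p under 0.05, against 1.52% of all genes. Of 10 pallidal neuron markers 4 had a mean log2 ratio above 0 (median -0.01), with Npas1, a transcription factor of a class of pallidal neurons, at -0.12 (SE 0.06). Of 6 striatal projection neuron markers 4 were above 0 (median 0.11), and their median was 0.09, 0.25, 0.15 and -0.09 on arrays 1 to 4. Rgs9, a striatal regulator of G protein signalling, had 0.13 (SE 0.06). Of 6 cortical and thalamic markers 4 were above 0 (median 0.06), with medians of -0.15, 0.10, 0.32 and 0.09 on the 4 arrays. Slc17a7 and Neurod6, at 0.32 and 0.04, had no spot above background, and both were named after their values were seen. Nrgn, a calmodulin-binding protein of forebrain neurons, had 0.24 (SE 0.07) from 1 spot, and ranged from 0.111 to 0.334 without single arrays. Of 5 microglia markers 1 was above 0 (median -0.07), with Tmem119 at -0.17 (SE 0.09). Of 6 endothelial markers 4 were above 0 (median 0.01), with Cldn5, a tight junction protein, at 0.18 (SE 0.11).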
